A study of Mus musculus with 8 samples.

Results

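Complement genes that fibroblasts are known to transcribe were followed in fibro-adipogenic progenitors (FAPs), the mesenchymal progenitors of skeletal muscle, during muscle regeneration. The members C1ra, C1s1, Masp1, C4b, C2, C3, Cfb, Cfd and Serping1 were chosen by gene symbol, and all 9 were found among the 55276 symbols of the deposited tables. Of these, 8 passed the filter on low values in every comparison and were tested, and Cfd, which was at or near 0, was not. The study asked how loss of the transcription factor Osr1 changes FAPs after injury. GFP+ cells were sorted from the injured tibialis anterior muscle of Ctrl mice (Osr1 flox/+ CAGG Cre+) and Osr1cKO mice (Osr1 flox/flox CAGG Cre+) at 3 and at 7 days post injury (dpi), and their polyadenylated RNA was sequenced. There were 2 libraries in each of the 4 groups, each made from a single animal (1) at 3 dpi and from a pool of 4 animals at 7 dpi. All mice were 4 to 6 months old, were injured by freezing and piercing the muscle, and received tamoxifen at injury and on the 2 days that followed.

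All groups thus carried the tamoxifen-inducible CAGG Cre, which is active in every tissue and not in FAPs alone, and at least 1 floxed Osr1 allele that expresses GFP once recombined. The controls were heterozygous, not wild type. Cells bearing endothelial, leukocyte or erythroid surface markers had been gated out before the GFP gate. The days differed in the pooling of mice and possibly in the sequencing instrument, so day, pooling and instrument cannot be told apart.

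Complement is a cascade of secreted proteases and their substrates that tags cells and debris for clearance. In the classical pathway the proteases C1r and C1s sit on the recognition protein C1q and cleave C4 and C2, whose fragments form an enzyme that cleaves C3. In the lectin pathway MASP proteases take the place of C1r and C1s, and in the alternative pathway C3 fragments bind factor B, which factor D then cleaves. Serping1 encodes the C1 inhibitor, which blocks C1r, C1s and some of the MASP proteases. Most complement in plasma is made by the liver, but fibroblasts are a known local source of the early components.

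Several members lie next to each other in the genome. In the mouse build GRCm38, C1ra (chr6:124512405-124523443, plus strand) and C1s1 (chr6:124530345-124542359, minus strand) are separated by 6901 bases. Cfb (chr17:34856374-34862518) and C2 (chr17:34862604-34898265) lie on the minus strand with 85 bases between them, and C4b (chr17:34728380-34743882, minus strand) is 112491 bases from Cfb. C3 is on the same chromosome but far away (chr17:57203970-57228136, minus strand). Serping1 (chr2:84765387-84775444, minus strand), Masp1 (chr16:23449417-23520815, minus strand) and Cfd (chr10:79890853-79892655, plus strand) stand alone.

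Promoter sequence from RefSeq (GRCm38.p6) was held for 4 of the 9 members. The 250 bases before the start of C1s1 and of C3 are shown, because C1s1 changed most with time and C3 is the component on which all pathways converge, and because both windows end where the annotated gene begins. Capitals mark the single match in each to TTGCNNAA, a short form of the motif bound by C/EBP factors, on either strand. The C1s1 window is chr6:124542360-124542609 and the C3 window chr17:57228137-57228386, both printed as the minus strand reads:
C1s1: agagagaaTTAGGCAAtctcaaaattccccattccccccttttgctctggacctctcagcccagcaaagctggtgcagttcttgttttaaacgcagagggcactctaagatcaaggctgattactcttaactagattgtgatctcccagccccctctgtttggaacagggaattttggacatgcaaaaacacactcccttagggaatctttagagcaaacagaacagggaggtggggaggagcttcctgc
C3: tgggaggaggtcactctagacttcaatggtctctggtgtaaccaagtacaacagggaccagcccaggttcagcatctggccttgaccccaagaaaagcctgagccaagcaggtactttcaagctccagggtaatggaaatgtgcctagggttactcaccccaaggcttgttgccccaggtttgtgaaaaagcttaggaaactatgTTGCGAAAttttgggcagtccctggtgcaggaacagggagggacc

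The match lies 242 to 235 bases before the start in C1s1 and 45 to 38 bases before it in C3. It was found in 2 of the 5 starts held for members. The other start of C1s1, whose window is chr6:124542322-124542571, and the starts of C1ra and Cfd have none. Of the 32851 starts in the table, 9.56% hold this motif within 250 bases. Neither window holds TTCNNTTTC, a core of the interferon-stimulated response element found before 7.13% of starts. The STAT motif TTCNNNGAA (7.02% of starts) and TATAAA (12.4%) were also searched on both strands without a match in these windows. A match in letters is a description of the window and not a measured binding site.

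Depth was recovered from the deposited values as 36516528 to 51096358 fragments per library. Replicates differed far beyond sampling noise in every group, so no library was counted as a copy of another. Osr1 itself was lower in Osr1cKO at both days without overlap, from 105 and 91.0 TPM in Ctrl to 70.7 and 71.9 TPM at 3 dpi, and from 67.6 and 71.6 TPM to 64.4 and 60.8 TPM at 7 dpi. TPM is a length-normalized share of all transcripts, scaled to the same total in every library. A whole-gene value includes whatever the recombined allele still transcribes, so it checks the labels only in part. Ctrl library 1 at 3 dpi stood apart from the other libraries, with the lowest summed FAP markers (20665 TPM against 25394 to 37198 TPM). That sum was set mostly by Col1a1. In this library Cd34 (119 TPM), Lum (371 TPM), Dpt (547 TPM) and Col1a1 were at their lowest of all libraries. Pdgfra and Ly6a were at their highest there, and Dcn and Pi16 lay within the range of the others. The same library had the highest summed acute phase genes (8237 TPM). It also had the endothelial receptor Kdr at 16.8 TPM against 0.880 to 2.25 TPM elsewhere. The other endothelial markers did not share this. In this library Pecam1 (1.19 TPM), Cdh5 (0.821 TPM), Emcn (0.104 TPM) and Tie1 (0.245 TPM) lay within the range of the other libraries.

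The sorted cells had the marker profile of FAPs. Pdgfra lay between 197 and 365 TPM and Col1a1 between 12404 and 28083 TPM, and all 8 FAP markers had a mean TPM above 1. Markers of other cells were low in sum, with 12.0 to 68.4 TPM for 10 macrophage genes, 1.53 to 17.2 TPM for 6 neutrophil genes, 0.0506 to 4.39 TPM for 6 lymphoid genes, 2.36 to 19.2 TPM for 5 endothelial genes and 0.394 to 2.97 TPM for 3 Schwann cell genes. The 7 muscle stem cell and myofiber genes summed to 1.77 to 2.77 TPM at 3 dpi and to 21.0 to 55.2 TPM at 7 dpi. The defining leukocyte gene Ptprc was between 0.00834 and 0.216 TPM. In RNA from sorted pools, fewer cells making a transcript and less transcript per cell cannot be told apart.

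The 9 members together made up 0.289% to 0.864% of all transcripts. Their summed level was 4922 and 3380 TPM in Ctrl and 3062.5 and 2894 TPM in Osr1cKO at 3 dpi, and 6521 and 8643 TPM in Ctrl and 5995 and 7313 TPM in Osr1cKO at 7 dpi. All libraries at 7 dpi were above all libraries at 3 dpi. C3 and Serping1 supplied 70.2% to 78.8% of the sum in each library.

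By mean TPM, which is per length, the 8 tested members ranked between 40 and 5577 of all symbols. The places of Cfb and C2 in this order are uncertain, since both share exon bases with the gene Gm20547. Serping1 ranked 40 of the 55276 symbols with a mean of 2286 TPM and C3 ranked 71 with 1603 TPM. C1s1 (731 TPM, rank 213), C1ra (376 TPM, rank 401) and C4b (242 TPM, rank 629) followed. Cfb (53.4 TPM), C2 (26.9 TPM) and Masp1 (21.9 TPM) were lower still, and Cfd was last at 0.0549 TPM. The ranges over the 8 libraries of neighbours in this order overlapped except for those of Cfd and Masp1. The plot of the members by library shows this order and the spread within each group.

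**Figure D1:**
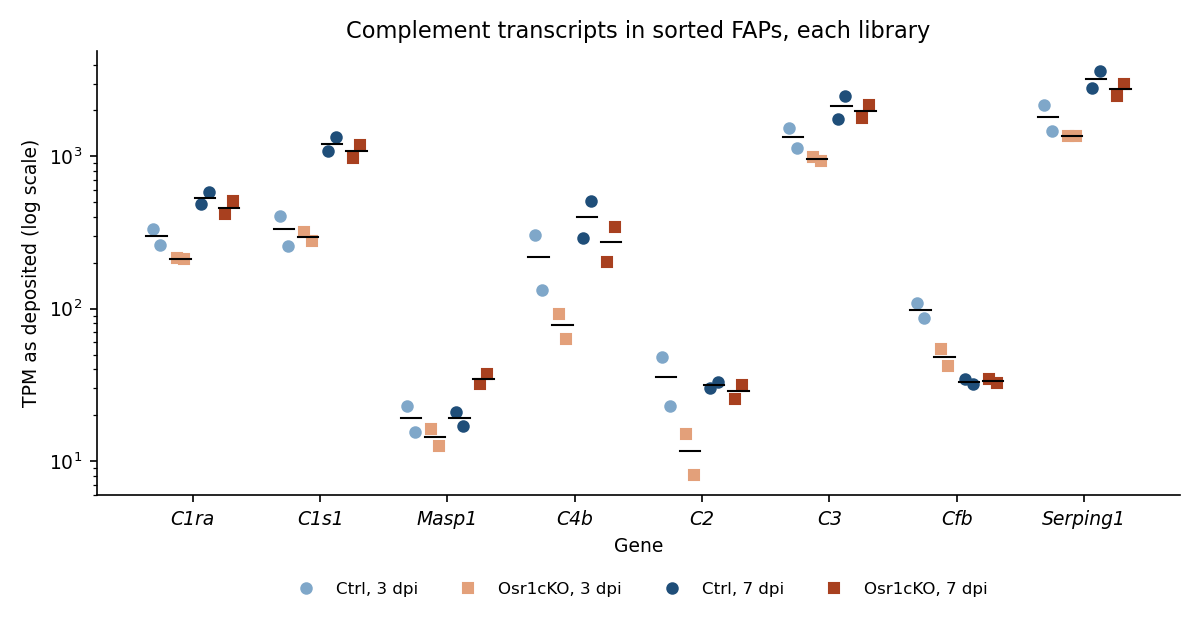
Deposited TPM (log axis) of the 8 tested members in each of the 8 libraries, with points for libraries, colours for the 4 groups and black lines for the mean of the 2 libraries. Serping1 and C3 were highest throughout, and in Cfb all 4 libraries at 7 dpi (31.9 to 34.8 TPM) lay below all 4 at 3 dpi (42.1 to 109.6 TPM).

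C1ra encodes C1r, the protease that activates C1s within the C1 complex. It stood at 335 and 261 TPM in Ctrl and at 215 and 211 TPM in Osr1cKO at 3 dpi, and at 484 and 584 TPM in Ctrl and 416 and 505 TPM in Osr1cKO at 7 dpi. All libraries at 7 dpi were above all at 3 dpi, and at 3 dpi both Osr1cKO libraries were below both Ctrl libraries.

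C1s1 encodes C1s, which cleaves C4 and C2. It stood at 406 and 256 TPM in Ctrl and at 318 and 277 TPM in Osr1cKO at 3 dpi, and at 1085 and 1334.5 TPM in Ctrl and 980.01 and 1194 TPM in Osr1cKO at 7 dpi. The genotypes overlapped at both days, while every library at 7 dpi was more than 2 times above every library at 3 dpi. An antisense gene, Gm16567, with a mean of 7.47 TPM covers 18.4% of the C1s1 exons, and the counting may not have separated the strands.

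Masp1 encodes a protease of the lectin pathway, and by alternative splicing also the protease MASP-3 and a shorter protein without protease activity, which a whole-gene value cannot separate. It stood at 23.0 and 15.6 TPM in Ctrl and at 16.3 and 12.6 TPM in Osr1cKO at 3 dpi, and at 21.1 and 17.1 TPM in Ctrl and 32.1 and 37.2 TPM in Osr1cKO at 7 dpi. The genotypes overlapped at 3 dpi. At 7 dpi both Osr1cKO libraries were above both Ctrl libraries and above every library at 3 dpi.

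C4b encodes C4, the first substrate of C1s. It stood at 302 and 133 TPM in Ctrl and at 91.7 and 63.4 TPM in Osr1cKO at 3 dpi, and at 291 and 509 TPM in Ctrl and 201 and 345 TPM in Osr1cKO at 7 dpi. Its replicates were far apart in every group, and the genotypes overlapped at 7 dpi but not at 3 dpi. The close copy C4a was listed at 0.688 to 2.78 TPM, and how reads were divided between the copies is uncertain; the same holds for C1ra with C1rb (0.325 to 0.814 TPM) and for C1s1 with C1s2 (0.772 to 4.19 TPM).

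C2 encodes the protease that joins C4 to form the classical C3-cleaving enzyme. It stood at 48.1 and 23.1 TPM in Ctrl and at 15.1 and 8.07 TPM in Osr1cKO at 3 dpi, and at 30.05 and 33.2 TPM in Ctrl and 25.6 and 31.6 TPM in Osr1cKO at 7 dpi. The Osr1cKO libraries at 3 dpi were the lowest of all 8. Cfb and C2 share 79.5% and 42.8% of their exon bases with the overlapping gene Gm20547, which was listed at a mean of only 0.0178 TPM. How reads in the shared bases were counted is not known. The levels of Cfb and C2 may therefore be understated against other genes and against each other.

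C3 encodes the central substrate of the cascade. It stood at 1534 and 1135 TPM in Ctrl and at 996 and 929.9 TPM in Osr1cKO at 3 dpi, and at 1759.8 and 2501.5 TPM in Ctrl and 1797.5 and 2173 TPM in Osr1cKO at 7 dpi. At 3 dpi both Osr1cKO libraries were below both Ctrl libraries, and at 7 dpi they lay between the Ctrl libraries.

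Cfb encodes factor B, the protease of the alternative pathway. It stood at 109.6 and 86.9 TPM in Ctrl and at 54.5 and 42.1 TPM in Osr1cKO at 3 dpi, and at 34.3 and 31.9 TPM in Ctrl and 34.8 and 32.7 TPM in Osr1cKO at 7 dpi. It was the only member whose 4 libraries at 7 dpi all lay below its 4 libraries at 3 dpi.

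Cfd encodes factor D (adipsin), the protease that cleaves factor B and a well known product of adipocytes. It was listed at 0 in all 4 libraries at 3 dpi and in 1 Ctrl library at 7 dpi, and at 0.101, 0.113 and 0.226 TPM in the remaining Ctrl and the 2 Osr1cKO libraries at 7 dpi, which came to 1, 1 and 2 recovered fragments. A count of 0 allows up to 3 fragments, or between 0.248 and 0.261 TPM in the libraries of 3 dpi and 0.295 TPM in the Ctrl library of 7 dpi, so no difference between groups was detectable at this depth. The 6 adipocyte markers were also near 0, with a sum of at most 0.600 TPM in any library and Lep at 0 in all 8.

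Serping1 encodes the C1 inhibitor. It stood at 2164 and 1469 TPM in Ctrl and at 1356 and 1350.4 TPM in Osr1cKO at 3 dpi, and at 2816 and 3633 TPM in Ctrl and 2507 and 2993 TPM in Osr1cKO at 7 dpi. Every library at 7 dpi was above every library at 3 dpi, and the inhibitor was the most abundant member in all 8 libraries.

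At 3 dpi, 4 of the 8 tested members were called lower in Osr1cKO and none higher. The called members were C2 and C4b, which form the classical C3-cleaving enzyme, Cfb of the alternative pathway and C1ra. The rule for this day was a fold change above 1.2 at p below 0.05 without adjustment, and 4.04% of the 15588 genes tested were called lower by it. Its cut-offs were those of the study, applied here with limma on TPM where the study used DESeq2. No member passed an adjusted p at this day, nor did any other gene, since the lowest Benjamini-Hochberg adjusted p of all genes was 0.318 with limma. With 2 libraries against 2, an exact permutation test of a single gene could not have gone below p = 0.333.

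C2 was lower by -1.51 on the log2 scale (SE 0.44, unadjusted p = 0.0186, adjusted p = 0.767, limma), from a mean of 35.6 ± 17.7 TPM (SD, n = 2) in Ctrl to 11.6 ± 4.99 TPM in Osr1cKO. C4b was lower by -1.39 (SE 0.42, unadjusted p = 0.0216, adjusted p = 0.767, limma), from 217 ± 119.8 TPM to 77.6 ± 19.98 TPM. These are the largest changes among the members, and also those with the largest SE. Cfb was lower by -1.02 (SE 0.20, unadjusted p = 0.00350, adjusted p = 0.767, limma), from 98.2 ± 16.0 TPM to 48.3 ± 8.75 TPM, and ranked 51 of all genes by p. C1ra was lower by -0.48 (SE 0.16, unadjusted p = 0.0308, adjusted p = 0.767, limma), from 298 ± 51.9 TPM to 213 ± 2.60 TPM.

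The other 4 members did not pass. C3 had a log2 change of -0.46 (SE 0.22, adjusted p = 0.831, limma), Serping1 of -0.40 (SE 0.25, adjusted p = 0.852), Masp1 of -0.38 (SE 0.25, adjusted p = 0.860) and C1s1 of -0.13 (SE 0.25, adjusted p = 0.946). All 8 estimates were thus below 0, against 49.4% of all genes, with a median of -0.47 against 0.00 for all genes. The members are not independent of each other, since they share their 4 libraries. In deposited TPM the genotypes did not overlap in 6 members, C1ra, C2, C3, C4b, Cfb and Serping1, with Osr1cKO lower in each; 18.0% of all genes showed this.

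Ctrl library 1 had the highest level of all 8 tested members at 3 dpi, and the result rests partly on it. Without it C4b (-0.80) and Cfb (-0.85) remained lower, and C1s1 turned to 0.21. With 1 library left out at a time, Cfb lay between -1.22 and -0.81 and C4b between -1.97 and -0.80. C2 lay between -2.02 and -0.9998 and C1ra between -0.65 and -0.30. The number of members called varied with the library left out, and so did the number of all genes called. Those member counts thus cannot be read as a result about the members alone.

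**Figure D2:**
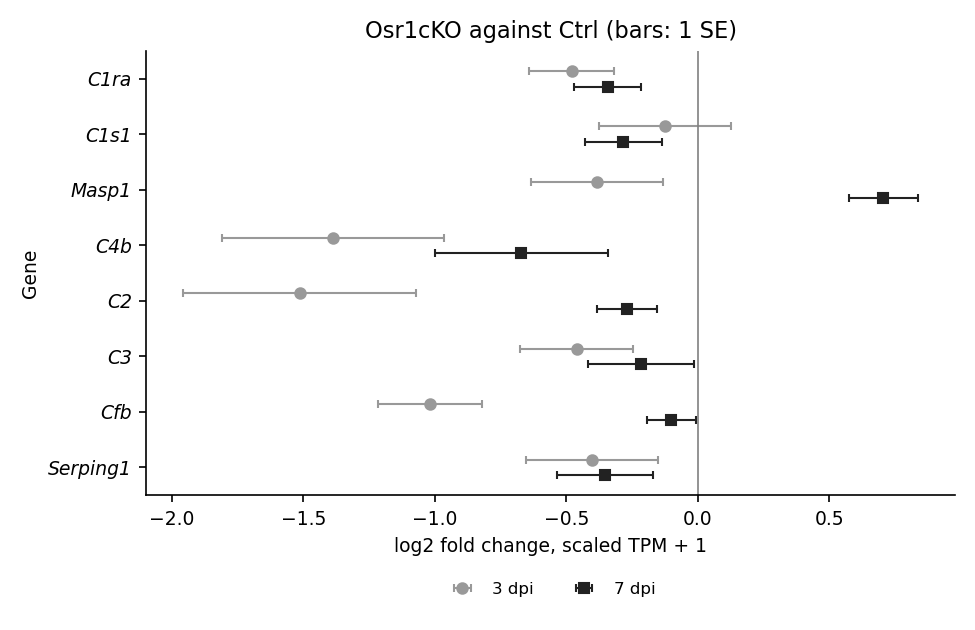
Log2 fold change of Osr1cKO against Ctrl for the 8 tested members at 3 dpi (grey circles) and at 7 dpi (black squares), on scaled TPM + 1, with bars of 1 SE. At 3 dpi all values are below 0 with C2 (-1.51) and C4b (-1.39) lowest, and at 7 dpi Masp1 alone is above 0 (0.70).

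Genes of the interferon response, in a list chosen with earlier results of these data known, were also lower. Of 31 genes of interferon signalling and its targets, 24 were called lower at 3 dpi, against 4.04% of all genes, with a median log2 change of -1.61. Their summed level was 10301 and 7908 TPM in Ctrl and 5013 and 1546 TPM in Osr1cKO, with no overlap. None of 18 acute phase genes and their regulators was called at 3 dpi (median -0.19), and their sums overlapped between the genotypes. Several members, C2, C4b and Cfb among them, are known targets of interferon in other cells, and such targets are not limited to the members called here. The part of the interferon response in the change of any member was not tested. The 10 macrophage markers summed to 21.4 and 21.3 TPM in Ctrl and 22.5 and 12.0 TPM in Osr1cKO at this day. The 5 endothelial markers summed to 19.2 and 4.87 TPM in Ctrl and to 2.36 and 2.70 TPM in Osr1cKO. Kdr alone was 16.8 TPM of the sum in Ctrl library 1, and none of the 4 endothelial markers tested was called at 3 dpi. The part of the macrophage and endothelial markers in the result was not tested either.

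At 7 dpi no member was called at the study's cut-offs for this day, an adjusted p under 0.1 with a fold change over 1.2. They were applied here with limma on TPM, where the study used DESeq2, so the calls are not those of the study. The cut-offs were passed by 0.0670% of 16427 genes (11 genes). At the rule used for 3 dpi, Masp1 was called higher and C1ra lower, against 5.36% of genes called higher and 5.88% called lower. Masp1 was 1.81-fold higher in mean TPM, 34.6 ± 3.58 TPM (SD, n = 2) in Osr1cKO against 19.1 ± 2.87 TPM in Ctrl, with a log2 change of 0.70 (SE 0.13, unadjusted p = 0.00228, adjusted p = 0.222, limma). C1ra had a log2 change of -0.34 (SE 0.13, unadjusted p = 0.0393, adjusted p = 0.368, limma), with 461 ± 63.0 TPM against 534 ± 70.2 TPM and libraries that overlapped in deposited TPM.

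The remaining members did not pass at 7 dpi. C4b had the largest of the other changes, -0.67 with a 95% interval from -1.49 to 0.15. Cfb, called lower at 3 dpi, had -0.10 with an interval from -0.34 to 0.13, and C2 had -0.27 with an interval from -0.55 to 0.01. The intervals of C3 (-0.72 to 0.28), Serping1 (-0.81 to 0.10) and C1s1 (-0.65 to 0.08) also held 0. Of the 8 estimates 7 were below 0, against 48.8% of all genes. Which members were lower at the unadjusted rule depended on the fit. With limma-voom and with a replicate block they were C1ra, C1s1, C2, C4b and Serping1, and with deposited TPM or no filter there were 0. The share of all genes at this rule was not computed for these fits, so the counts cannot be read as a result about the members. By the adjusted cut-offs limma-voom called 121 genes lower, against 8 in the fit reported. With 1 library left out, C1ra lay between -0.47 and -0.22 and C4b between -1.07 and -0.28.

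The level of all genes was set by the scaling at this day. In deposited TPM the median of all genes was 0.11 higher in Osr1cKO on the log2 scale, and 43.0% of all genes had both Osr1cKO libraries above both Ctrl libraries, as did Masp1. After scaling, that share was 23.4%, and Masp1 was again the only such member tested, while C1ra, C1s1, C2 and Serping1 had both Osr1cKO libraries lower, as did 22.6% of genes. With deposited TPM the C1ra difference lost its call and Cfb turned to 0.03, while Masp1 remained higher.

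Between 3 and 7 dpi Cfb was the only tested member that fell by the rule used, while the others rose or did not pass. In Ctrl FAPs the proteases C1ra and C1s1, C3 and the inhibitor Serping1 rose and Cfb fell, at an adjusted p under 0.05 with a fold change over 1.2. By this rule 21.4% of 17226 genes were called higher and 24.2% lower. These tests reuse the libraries of the genotype comparisons.

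C1s1 rose most in Ctrl, by 1.97 on the log2 scale (SE 0.22, adjusted p = 0.000672, limma), from 331 ± 106 TPM (SD, n = 2) to 1209.6 ± 177 TPM, a 3.65-fold change. C1ra rose by 0.92 (SE 0.15, adjusted p = 0.00265, limma), Serping1 by 0.92 (SE 0.24, adjusted p = 0.0169) and C3 by 0.75 (SE 0.23, adjusted p = 0.0315). Cfb fell 2.96-fold in mean TPM, with a log2 change of -1.46 (SE 0.16, adjusted p = 0.000622, limma), from 98.2 ± 16.0 TPM to 33.1 ± 1.68 TPM. C4b did not pass at 1.01 (SE 0.44, adjusted p = 0.0958), and neither did C2 (0.00, 95% interval -0.85 to 0.84) or Masp1 (0.08, interval -0.40 to 0.56). Leaving out 1 library moved the count of members called higher from 4 to between 2 and 5, with 2 without Ctrl library 2 of either day and 5 without Ctrl library 1 of 3 dpi.

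In Osr1cKO FAPs 7 of the 8 tested members rose and Cfb fell, against 17.5% of genes called higher and 23.6% called lower. C1s1 again rose most, by 1.76 (SE 0.22, adjusted p = 0.00135, limma), from 297 ± 29.4 TPM (SD, n = 2) to 1087 ± 151 TPM. C4b rose by 1.68 (SE 0.44, adjusted p = 0.0204), C2 by 1.19 (SE 0.36, adjusted p = 0.0339) and Masp1 by 1.12 (SE 0.21, adjusted p = 0.00538). C1ra (1.004), C3 (0.94) and Serping1 (0.92) rose by about as much as in Ctrl. Cfb had a log2 change of -0.59 (SE 0.16, adjusted p = 0.0215, limma), from 48.3 ± 8.75 TPM to 33.7 ± 1.49 TPM. Without Osr1cKO library 2 of either day, 3 members were called higher, and Cfb lost its call without Osr1cKO library 1 of 3 dpi and without either Osr1cKO library of 7 dpi.

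Over both genotypes, C1ra, C1s1, C3 and Serping1 had all 4 libraries at 7 dpi above all 4 at 3 dpi, as did 25.0% of genes, and Cfb had all 4 below, as did 27.2%. Interferon genes were called lower with time in 23 of 31 cases in Ctrl and in 4 of 31 in Osr1cKO, against 24.2% and 23.6% of all genes. Their summed level was 2168 and 2262 TPM in Ctrl and 1579.6 and 1981 TPM in Osr1cKO at 7 dpi. The 10 macrophage markers rose in sum to between 43.4 and 68.4 TPM, and Lyz2 to between 19.5 and 36.1 TPM from at most 8.47 TPM; their part in the change of the members was not tested.

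**Figure D3:**
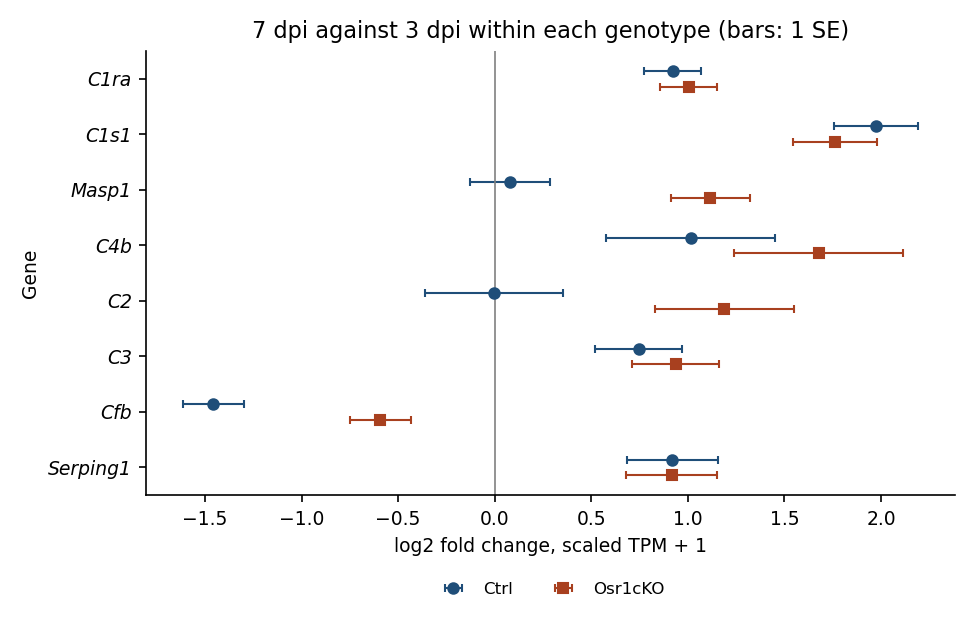
Log2 fold change from 3 to 7 dpi for the 8 tested members in Ctrl (blue circles) and in Osr1cKO (red squares), on scaled TPM + 1, with bars of 1 SE. C1s1 is highest in both (1.97 and 1.76) and Cfb lowest (-1.46 and -0.59), while C2 and Masp1 are near 0 in Ctrl and above 1 in Osr1cKO.

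Whether the genotype difference itself changed with the day was tested as an interaction over all 8 libraries. No member passed at an adjusted p under 0.05 with limma, and neither did any other gene (0.00% of 17226; without adjustment, 553 genes were higher and 646 lower at p below 0.05). At that unadjusted rule 3 members were called higher, against 3.21% of genes. The estimates were 0.86 for Cfb (SE 0.22, unadjusted p = 0.00563, adjusted p = 0.587, limma), 1.04 for Masp1 (SE 0.29, unadjusted p = 0.00862, adjusted p = 0.617) and 1.19 for C2 (SE 0.51, unadjusted p = 0.0495, adjusted p = 0.715). The difference in the fall of Cfb between the genotypes, and in the rise of Masp1 and C2, thus rests on unadjusted values.

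The other interactions were small or wide. C4b had 0.66 with a 95% interval from -0.79 to 2.12, C3 0.19 (-0.56 to 0.94), C1ra 0.08 (-0.41 to 0.57), C1s1 -0.21 (-0.94 to 0.51) and Serping1 0.00 (-0.79 to 0.78). The intervals do not show that these members behaved alike in both genotypes.

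Averaged over the days, no member was called at an adjusted p under 0.1 with limma (0.00% of genes passed, and the lowest adjusted p of all genes was 0.110). At an unadjusted p under 0.05, where 814 genes were higher and 800 lower, 4 members were called lower, against 4.64% of genes. These were Cfb (-0.54, SE 0.11, adjusted p = 0.365, limma), C1ra (-0.39, SE 0.10, adjusted p = 0.378), C2 (-0.87, SE 0.25, adjusted p = 0.378) and C4b (-1.01, SE 0.31, adjusted p = 0.378), the members called at 3 dpi. The average contains the 3 dpi difference from the same libraries, so this match is not independent of the calls at 3 dpi.

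Ratios between members within a library do not depend on the scaling and describe the balance of their transcripts in these cells. Protein and the activity of the cascade were not measured. C1s1 transcripts were 0.979 to 1.48 times those of C1ra in the 4 libraries at 3 dpi and 2.24 to 2.36 times at 7 dpi, with no overlap. The inhibitor Serping1 kept a ratio to C1ra of 5.62 to 6.46 at 3 dpi and 5.81 to 6.22 at 7 dpi, so these ranges overlapped, while its ratio to C1s1 was 4.26 to 5.74 at 3 dpi and 2.51 to 2.72 at 7 dpi.

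The ratio of Cfb to its neighbour C2 fell with time. Cfb was 2.28 to 5.22 times C2 at 3 dpi and 0.963 to 1.36 times at 7 dpi. The size of a ratio with Cfb or C2 is uncertain, since both share exon bases with Gm20547. C3 was 13.1 to 22.1 times Cfb at 3 dpi and 51.3 to 78.3 times at 7 dpi. The ratio of C3 to Cfb was also higher in Osr1cKO (18.3 and 22.1) than in Ctrl (14.0 and 13.1) at 3 dpi, whereas at 7 dpi Osr1cKO (51.7 and 66.5) lay within the range of Ctrl (51.3 and 78.3). C3 to C4b was higher in both Osr1cKO libraries (10.9 and 14.7) than in both Ctrl libraries (5.08 and 8.55) at 3 dpi. At 7 dpi it was again higher, but only just (8.92 and 6.29 against 6.05 and 4.92), and C3 and C4b each overlapped between the genotypes. These ratios were not set against other pairs of genes, and they reuse the libraries of the genotype comparisons.

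**Figure D4:**
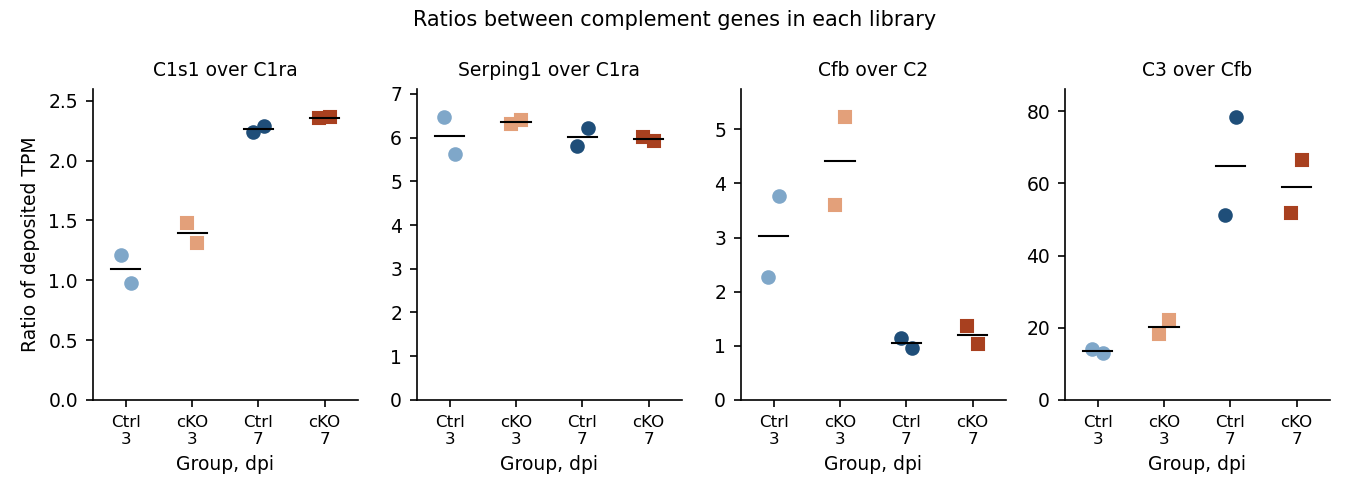
Ratios of deposited TPM between pairs of members in each library, with points for the 2 libraries of a group and black lines for their mean, each axis starting at 0. C1s1 over C1ra and C3 over Cfb are higher at 7 dpi in every library, Cfb over C2 is lower, and Serping1 over C1ra stays between 5.62 and 6.46.

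Across the 8 libraries, log2 levels of C1ra, C3 and Serping1 followed each other closely, with Pearson's r of 0.992 for C1ra with Serping1, 0.985 for C1ra with C3 and 0.989 for C3 with Serping1. Such values describe 8 libraries that fall into 2 days and share depth and composition. With the mean of each day removed, C2 and Cfb had an r of 0.941 and C4b had 0.967 with C3 and 0.965 with C1ra, whereas Masp1 lay between -0.09 and 0.42 with the other 7.

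Among 7858 other genes with a mean TPM of at least 5, those whose pattern was most like each member by Pearson's r over the 8 libraries were Ghr, Plgrkt and Islr for C1ra (0.99 each) and Cir1, Tprgl and Firre for C1s1 (0.998 for the first). Sap30 (0.94) and Cdkn2b (0.93) were among those most like Masp1, and Card10, Mst1r and Ldb1 were most like C4b (0.99 each). For C2 they were Ifi203, Gm10212 and AW112010 (0.98 each), and for C3 Renbp (0.99), Ahnak2 (0.99) and Ezh1 (0.98). N4bp1 (0.997), Enpp4 (0.995) and Fes (0.992) were most like Cfb, and Fmo1, Use1 and Mir409 most like Serping1 (0.99 each). The gene most like Cfb, N4bp1, went from 35.6 and 28.6 TPM in Ctrl at 3 dpi to 14.6 and 14.5 TPM at 7 dpi. The median r over all genes compared lay between -0.73 (C1s1) and 0.52 (Cfb). Being the highest of many values over libraries of 2 days, the r listed do not show shared regulation.

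The other 51 complement genes examined were mostly low in these cells. Of 15 genes of recognition and initiation, 8 had a mean TPM under 1. None was called between genotypes at 3 dpi or at 7 dpi by the rule of that day, and with time 7 of 11 tested were called higher and 1 lower in Ctrl, and the same numbers in Osr1cKO. Of all genes, 21.4% were called higher and 24.2% lower with time in Ctrl, and 17.5% and 23.6% in Osr1cKO. The C1q chains C1qa, C1qb and C1qc, made chiefly by macrophages, ran from 0.198 to 3.05 TPM at 3 dpi and from 2.05 to 9.76 TPM at 7 dpi, far below C1ra and C1s1. The scavenger receptor Colec12 was the most abundant of the list, at 64.8 to 68.8 TPM at 3 dpi and 97.9 to 127 TPM at 7 dpi (log2 change in Ctrl 0.88, adjusted p = 0.000973, limma). Colec10, Colec11 and C1s2 also rose and C1rl fell (-0.61 in Ctrl), while the collectin Mbl1 was at 0 in all libraries.

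Of 8 genes of the terminal pathway and properdin, 6 had a mean TPM under 1. The exceptions were C7 and the alternative pathway stabilizer Cfp. C7, a component of the membrane attack complex, stood at 26.2 and 3.99 TPM in Ctrl and 2.89 and 7.05 TPM in Osr1cKO at 3 dpi, and at 64.0 and 95.5 TPM in Ctrl and 42.9 and 17.3 TPM in Osr1cKO at 7 dpi. It was called higher with time in Ctrl (2.84, adjusted p = 0.0224, limma), and at 7 dpi its genotype difference of -1.61 did not pass (unadjusted p = 0.0118, adjusted p = 0.2997, limma). Cfp ran from 4.71 to 13.8 TPM, and rose with time in Ctrl (0.94, adjusted p = 0.0250) and in Osr1cKO (0.82, adjusted p = 0.0447).

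Of 18 regulators, 10 had a mean TPM under 1. Clusterin (Clu), an inhibitor of the terminal complex, was called lower in Osr1cKO at 3 dpi, with 8.71 and 6.72 TPM in Ctrl and 4.16 and 3.38 TPM in Osr1cKO (-0.87, unadjusted p = 0.0115, adjusted p = 0.767, limma). With time 9 of 13 tested regulators were called higher and 1 lower in each genotype. The shares of all genes were 21.4% and 24.2% in Ctrl and 17.5% and 23.6% in Osr1cKO. The decay accelerating factor Cd55 ran from 17.4 to 21.8 TPM at 3 dpi and from 59.0 to 111 TPM at 7 dpi, and vitronectin (Vtn) from 58.2 to 74.6 TPM and from 118 to 148 TPM. The membrane inhibitor Cd59a, Clu, Cd46, Cpn1 and Csmd1 rose as well in both genotypes, Cpn2 in Ctrl and factor I (Cfi) in Osr1cKO, while Cr1l fell (-0.36 in Ctrl and -0.34 in Osr1cKO).

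Of 10 receptors, 7 had a mean TPM under 1, among them C3ar1 (0.0355 to 0.943 TPM) and C5ar1 (0.119 to 1.01 TPM). None was called between genotypes. C1qbp, a mitochondrial protein that can bind C1q, was called lower with time, from between 145 and 171 TPM at 3 dpi to between 39.7 and 58.7 TPM at 7 dpi (-1.83 in Ctrl, adjusted p = 0.000206, limma). Itgax and Cd93 were called higher with time in Osr1cKO.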

How the data were processed

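RNA-seq of sorted GFP+ FAPs was analysed in 8 libraries. Per the labels and the study's methods, stranded paired-end libraries were aligned to mm10 with STAR, and DESeq2 was used for testing; versions, the counter and its annotation are not given in the sources used here. The authors deposited TPM per gene symbol, which keeps no depth. The labels give reads of 75 bases for all libraries, while the methods also name another instrument.

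Of 55385 entries, 109 repeats of 106 symbols were left out, which kept 55276. With exon lengths from GENCODE (GRCm38; 53281 symbols matched), 98.7% to 98.9% of values under 50 fragments came within 0.02 of a whole number, which gave the depth.

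Scaling used log ratios of TPM averaged after trimming a fraction of 0.3. Tested were genes of 10 or more fragments in 2 libraries and 15 in all (symbols without a length at a mean TPM of at least 1), with limma 3.58.1 (lmFit, eBayes with trend, Benjamini-Hochberg adjustment) in R 4.3.3 on log2(TPM + 1), so low genes have understated fold changes. Each day was fitted on its 4 libraries, and the days, the interaction and the average on all 8. Thresholds at 3 and 7 dpi followed the study. Python 3.11.15, pandas 2.3.3, NumPy 2.4.6 and matplotlib 3.10.9 were used. The procedure was tested on simulated data.

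Libraries of a group came from separate mice or pools, with 2 libraries per group. The spread behind a p-value was pooled over the groups of its fit and drawn toward a trend over all genes. The fits of all 8 libraries thus assume the same spread for single animals and for pools. Replicates differed more at 3 dpi, with a chi-square against sampling noise of 204 (Ctrl) and 109 (Osr1cKO) per gene. At 7 dpi it was 21.5 (Ctrl) and 26.5 (Osr1cKO).

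The members and the 14 other lists, of 160 genes in all with the members, were chosen with earlier results of these data known: 4 further complement lists, interferon and acute phase genes, and markers of FAPs, macrophages, neutrophils, lymphoid cells, endothelium, adipocytes, muscle stem cells with myofibers and Schwann cells. Named were all members, other complement genes past a call of any comparison or else the 2 highest of a list, 3 genes most like each member (mean TPM of at least 5, SD of at least 0.2 on the log2 scale), Osr1, and markers at or near 0 or moving with a result. Alternatives were other scalings, pseudocounts, filters and fits, limma-voom on recovered fragments, a replicate block and leaving out each library. No column of values was left unused. Some genes that the rule for named genes covers are not reported here.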

Additional observations from a re-analysis of the deposited data

Results flagged for a closer look

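In 3 members the genotype difference was not the same at both days by the unadjusted test of the interaction itself, and none passed after adjustment. The estimate was 0.86 on the log2 scale for Cfb (unadjusted p = 0.00563, adjusted p = 0.587, limma), whose genotypes were apart at 3 dpi and together at 7 dpi. It was 1.04 for Masp1 (unadjusted p = 0.00862, adjusted p = 0.617, limma), with values below 0 at 3 dpi and above 0 at 7 dpi. It was 1.19 for C2 (unadjusted p = 0.0495, adjusted p = 0.715, limma). Over the alternatives the lowest adjusted p was 0.148 for Cfb, 0.129 for Masp1 and 0.173 for C2, each without Ctrl library 2 of 3 dpi. With 1 library left out at a time, the estimate lay between 0.66 and 1.06 for Cfb, between 0.81 and 1.27 for Masp1 and between 0.72 and 1.67 for C2. At the unadjusted rule Cfb and Masp1 were called in every alternative, whereas C2 lost its call with no filter, at a mean TPM of at least 1 and in 6 of the 8 fits that left out a library, all but those without Ctrl library 2 or without Osr1cKO library 1 of 3 dpi.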

How the results depend on the processing

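Of 776 values of single members under 19 alternatives, 700 kept their direction and their side of the threshold, 35 lost a call, 14 gained one and 27 changed sign. At 3 dpi the 4 members were called lower in each alternative that kept all libraries, while all genes called higher numbered 560 with no filter and 912 in a fit of all 8 libraries (351 in the fit reported), the latter taking the share of calls that were higher from 35.8% to 50.2%. At 7 dpi, where 3 genes were higher and 8 lower, TPM as deposited gave 12 higher (66.7% of calls against 27.3%) and turned Cfb to 0.025, a mean TPM of at least 1, no filter and a fit of all 8 libraries each gave 0 and 0, and limma-voom gave 77 and 121, with 1 member called higher (Masp1, 0.73). With no filter, genes called higher with time fell to 2309 in Ctrl (3682 reported; 2 members) and to 1890 in Osr1cKO (3014 reported; 3 members). The interaction gave 1 gene higher and 2 lower with a pseudocount of 0.1, 1 lower at a mean TPM of at least 1, and 10 higher and 20 lower with no filter. The average gave 3 higher and 4 lower with that pseudocount, 15 and 20 with no filter, and 3 lower with robust variances. Signs also turned for values near 0, namely the Serping1 interaction (0.17 with TPM as deposited, 0.034 with median of ratios scaling, 0.019 at a mean TPM of at least 1, 0.065 with no filter, 0.054 with limma-voom), C2 with time in Ctrl (0.013 with median of ratios scaling, 0.059 at a mean TPM of at least 1) and Masp1 with time in Ctrl (-0.071 with no filter). The cause was not tested.

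Nothing in the labels ties replicate numbers across groups, and libraries with the same number did not deviate together (correlation -0.13 at 3 dpi and 0.07 at 7 dpi). With a replicate block, 7 dpi gave 13 genes higher and 14 lower, 3 dpi gave 284 and 623, and C4b with time in Ctrl passed (1.01). Crossing the numbers at 3 dpi, an alternative chosen after seeing the data, gave 461 genes higher and 719 lower.

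With 1 library left out at a time, a lone library was assumed to vary like the others. Genes called at 3 dpi ranged from 153 to 1111 higher and from 237 to 1670 lower, with 1 to 8 members lower. At 7 dpi they ranged from 1 to 252 higher and from 3 to 232 lower, with 0 to 1 member in each direction (Masp1 and C4b, without Ctrl library 1). With time they ranged from 2112 to 3736 higher and from 2562 to 4439 lower in Ctrl (2 to 5 members higher), and from 1609 to 3582 higher and from 2225 to 4634 lower in Osr1cKO (3 to 7 members higher, 0 to 1 lower). The interaction ranged from 0 to 14 higher and from 0 to 55 lower, and the average from 0 to 832 higher and from 0 to 738 lower, with 0 to 4 members lower (4 without Ctrl library 2 of 3 dpi). Signs turned within the ranges of C1s1 at 3 dpi (-0.45 to 0.21), C3 at 7 dpi (-0.46 to 0.028), C2 (-0.48 to 0.47) and Masp1 (-0.15 to 0.30) with time in Ctrl, and the interactions of C1ra (-0.050 to 0.22), C1s1 (-0.50 to 0.080), C3 (-0.051 to 0.44) and Serping1 (-0.24 to 0.24). Depth limited what could be said of Cfd.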
